A study of Mus musculus with 16 samples.

Results

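The regions described are 2093 SIRT1 peaks of wild-type mouse macrophages that were listed in both wild-type SIRT1 libraries and lay outside the listed peaks of H3K27ac and H3K27me3. They were chosen from the 74346 peaks of the Ezh2 wild-type SIRT1 list on chromosomes 1 to 19 and X, by an overlap of at least 1 bp with a peak of the p53 wild-type SIRT1 list and no overlap with a peak of either histone mark. A total of 2939 peaks were shared by both wild-type lists. Of these, 2093 (71.2%) met no listed histone peak, 579 met H3K27ac alone, 259 met H3K27me3 alone and 8 met both. The 2093 regions were 2.82% of the list, and another 58602 peaks outside both marks were not shared. Being shared and being unmarked were the rule itself and are given as a description.

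SIRT1 is an NAD-dependent deacetylase that removes acetyl groups from histones and from regulators such as p53, FOXO factors and the RelA subunit of NF-kB. It has no DNA-binding domain of its own and reaches chromatin through partner proteins. H3K27 can be acetylated, as at active promoters and enhancers, or trimethylated by EZH2, the methyltransferase of Polycomb repressive complex 2, and the same lysine cannot carry both. In macrophages, SIRT1 is known for restraining inflammatory transcription.

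The cells were primary macrophages grown for 5 days from C57BL/6 bone marrow in M-CSF medium. SIRT1 was immunoprecipitated from untreated cells in 4 groups: wild-type cells labelled as the partner of the Ezh2 knockout (Ezh2 wild type), cells with the Ezh2 knockout, wild-type cells labelled as the partner of the p53 knockout (p53 wild type), and cells with the p53 knockout. H3K27ac, H3K27me3 and p53 were mapped in untreated wild-type cells, and EZH2 in untreated wild-type cells and in wild-type cells given nigericin after LPS priming. The labels call both wild-type groups wild type and do not say how either gene was deleted, in which cells of the animal, or whether animals were pooled. Each group had 1 library (n = 1). No difference between groups therefore has a replicate check or a p-value, and the 95% Wilson intervals given cover counting error only.

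The 4 SIRT1 lists were sparse. Beside the 74346 peaks of Ezh2 wild type there were 56129 in p53 wild type, and the knockout lists held 18087 (Ezh2) and 59703 (p53) peaks. Between 180 and 507 peaks of each list had a q-value of at most 0.05. The sequencing depth in reads is not given in the sources used. Fragments at each summit were instead recovered from the deposited values, and the weakest listed peak rested on 3 fragments, or on 4 in the Ezh2 knockout list. H3K27ac lay within 1 kb of an end of 11 of 12 macrophage marker genes, all but C1qa, and at 1 of 8 neutrophil, 2 of 8 lymphocyte, 1 of 8 stromal and 0 of 8 erythroid markers.

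The regions included the starts of named genes. On the 19 chromosomes with RefSeq promoter windows, 90 windows of 300 bases held the summit of 81 of the regions. A set of 6 follows, each as the 250 bases before the transcription start (GRCm38.p6, RefSeq), with the 31 bases around the Ezh2 wild-type summit in capitals. The first 4 also had a SIRT1 peak in a knockout list and the last pair had none, and within each set the windows with the highest lower wild-type fold were taken, among formally named genes whose capitals fit wholly before the start, with ties in order of the gene name. They show a range of base composition, from 50.8% GC at Ccdc125, which encodes a coiled-coil protein, to 73.6% GC at Hspa4l, which encodes a chaperone of the Hsp110 family. Nub1 encodes a negative regulator of NEDD8 conjugation, Slc27a1 a fatty acid transporter, Usp20 a deubiquitinase, and Flt3l the growth factor that binds the receptor FLT3. Their windows lie at chr13:100669231-100669480 (plus strand, Ccdc125), chr3:40745363-40745612 (plus, Hspa4l), chr5:24685565-24685814 (plus, Nub1), chr8:71570344-71570593 (plus, Slc27a1), chr2:30982029-30982278 (plus, Usp20) and chr7:45136433-45136682 (minus, Flt3l).
Ccdc125: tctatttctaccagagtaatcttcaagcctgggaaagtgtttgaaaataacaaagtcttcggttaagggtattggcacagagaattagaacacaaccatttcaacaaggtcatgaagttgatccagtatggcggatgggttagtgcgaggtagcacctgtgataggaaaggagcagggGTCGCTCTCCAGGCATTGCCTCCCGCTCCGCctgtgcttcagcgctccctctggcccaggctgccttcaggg
Hspa4l: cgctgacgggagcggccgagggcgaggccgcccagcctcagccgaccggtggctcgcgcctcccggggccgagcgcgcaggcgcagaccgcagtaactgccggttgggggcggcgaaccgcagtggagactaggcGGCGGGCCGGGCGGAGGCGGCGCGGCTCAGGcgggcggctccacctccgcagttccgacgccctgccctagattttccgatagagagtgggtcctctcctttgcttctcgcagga
Nub1: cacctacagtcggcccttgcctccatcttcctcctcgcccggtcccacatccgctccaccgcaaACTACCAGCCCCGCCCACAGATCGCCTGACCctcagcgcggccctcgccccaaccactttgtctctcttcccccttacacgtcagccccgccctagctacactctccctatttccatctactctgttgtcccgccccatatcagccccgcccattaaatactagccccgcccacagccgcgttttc
Slc27a1: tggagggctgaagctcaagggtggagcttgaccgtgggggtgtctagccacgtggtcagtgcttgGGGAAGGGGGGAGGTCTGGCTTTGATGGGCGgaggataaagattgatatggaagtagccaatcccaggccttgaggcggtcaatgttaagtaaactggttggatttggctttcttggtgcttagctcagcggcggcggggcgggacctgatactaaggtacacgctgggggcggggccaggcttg
Usp20: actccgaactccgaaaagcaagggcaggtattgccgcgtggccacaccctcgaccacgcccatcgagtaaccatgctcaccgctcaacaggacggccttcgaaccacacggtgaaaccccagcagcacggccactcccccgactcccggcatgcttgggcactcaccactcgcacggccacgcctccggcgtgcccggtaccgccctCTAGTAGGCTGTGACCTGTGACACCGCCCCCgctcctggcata
Flt3l: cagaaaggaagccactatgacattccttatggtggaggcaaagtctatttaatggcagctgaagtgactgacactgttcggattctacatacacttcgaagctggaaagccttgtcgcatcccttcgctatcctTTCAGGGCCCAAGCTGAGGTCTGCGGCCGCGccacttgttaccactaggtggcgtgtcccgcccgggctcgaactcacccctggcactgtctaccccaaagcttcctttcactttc

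The regions were weak peaks in both wild-type lists. Their deposited fold enrichment in the Ezh2 wild-type list had a median of 2.75 (1.51 to 8.81), and the median number of fragments at the summit was 4 (3 to 1442). The overlapping p53 wild-type peaks had a median fold of 2.90 and also a median of 4 fragments. A q-value of at most 0.05 in the Ezh2 wild-type list was reached by 63 of the 2093 (3.01%), against 0.332% of all peaks and 0.222% of the unshared peaks outside both marks. The regions had a median length of 286 bp, against 242 bp for the unshared peaks outside both marks. Both wild-type summits lay within 100 bp of each other in 842 of the 2093 (40.2%), with a median distance of 134 bp. The 2093 regions met 2081 different p53 wild-type peaks, so a few neighbours shared a partner.

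Presence in the knockout lists was measured in libraries that the choice of regions did not use. A SIRT1 peak of Ezh2 knockout cells overlapped 231 of the 2093 regions (11.0%, interval 9.77% to 12.5%), against 1.94% of all Ezh2 wild-type SIRT1 peaks. A SIRT1 peak of p53 knockout cells overlapped 315 (15.1%, 13.6% to 16.6%), against 4.32% of all peaks. Both knockout lists had a peak at 119 regions (5.69%, against 0.434% of all peaks), the Ezh2 knockout alone at 112 and the p53 knockout alone at 196. The other 1666 regions (79.6%) had a peak in neither knockout list, as did 94.2% of all peaks. A region with no listed peak may still hold fragments below the threshold of that list.

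Shared peaks were met by knockout peaks more often than unshared ones, outside the marks and over each of them. Of the unshared peaks outside both marks, 1.39% met an Ezh2 knockout peak, 3.39% a p53 knockout peak and 0.229% both. Of shared peaks over H3K27ac alone, 7.60% (5.71% to 10.05%) and 15.2% (12.5% to 18.4%) met one in the Ezh2 and p53 knockout, and of those over H3K27me3 alone 8.11% (5.36% to 12.1%) and 14.7% (10.9% to 19.5%). Unshared peaks over H3K27ac alone had 3.19% (2.79% to 3.63%) and 8.47% (7.83% to 9.16%), and unshared peaks over H3K27me3 alone had 1.94% (1.61% to 2.32%) and 3.52% (3.08% to 4.02%). The unmarked regions had the highest of the 3 shared shares in the Ezh2 knockout, and their intervals overlap those of both marked classes in each knockout. An overlap of intervals does not show that shares are equal. A peak in both knockouts was seen for 5.69% (4.77% to 6.76%) of the unmarked regions, 5.41% (3.25% to 8.87%) of the shared H3K27me3 peaks and 2.59% (1.58% to 4.23%) of the shared H3K27ac peaks. The intervals of the unmarked and the H3K27ac class do not overlap. Without peaks of a local background of 2 fragments or more, the shares were 4.33% (3.53% to 5.31%) and 2.09% (1.20% to 3.61%). The unmarked share was still the higher one there, with intervals that overlap at their ends.

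**Figure D1:**
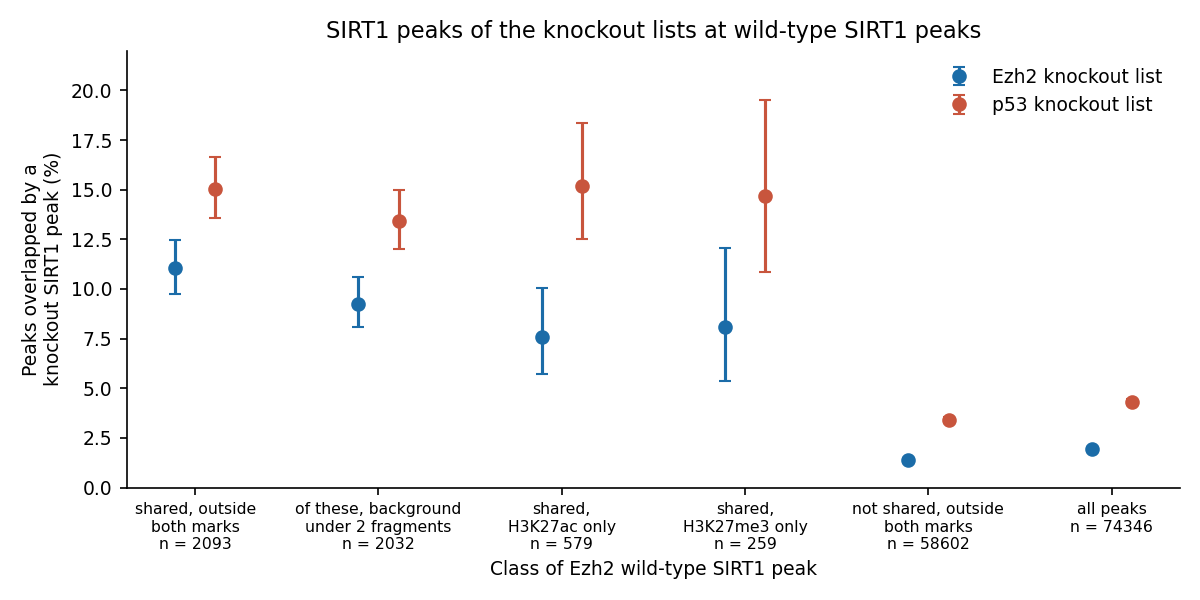
Share of Ezh2 wild-type SIRT1 peaks (%, vertical axis) overlapped by a SIRT1 peak of the Ezh2 knockout list (blue) or the p53 knockout list (red), by class of peak; points are shares in 1 library pair and bars are 95% Wilson intervals. The 2093 shared peaks outside both marks sit at 11.0% and 15.1%, the unshared peaks outside both marks at 1.39% and 3.39%.

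The higher share in the p53 knockout than in the Ezh2 knockout was not kept under every setting. The p53 knockout list held 59703 peaks and the Ezh2 knockout list 18087. When all 4 SIRT1 lists were limited to their 18087 peaks of highest −log10 p, 304 regions met the rule, and 28.3% of them had a peak in the Ezh2 knockout and 25.3% in the p53 knockout. The order of both knockouts turned, and the intervals of these last shares overlap (23.5% to 33.6% and 20.8% to 30.5%). All Ezh2 wild-type peaks had 2.98% and 2.64% under this limit. At a −log10 p of at least 3 in the SIRT1 lists, the order was kept, at 19.6% and 21.4% of the regions. The limit to equal length also kept only the strongest peaks, so list length alone was not tested.

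Starting from the other wild-type list takes mostly the same overlapping pairs, since the 2093 regions met 2081 different p53 wild-type peaks. Close values were therefore built in and are no independent check. By the same rule, 2092 peaks of the p53 wild-type list were shared and unmarked, and 10.5% and 14.6% of them had a peak in the Ezh2 and p53 knockout lists. All p53 wild-type peaks had 2.24% and 4.99%. The regions took up only a small part of the knockout lists: 229 of 18087 Ezh2 knockout peaks (1.27%) and 313 of 59703 p53 knockout peaks (0.524%) met one.

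Presence was higher at summits with more fragments. Regions with 3, 4 and 5 fragments at the Ezh2 wild-type summit had an Ezh2 knockout peak in 7.83%, 6.12% and 6.65% of cases, those with 6 to 7 in 19.3%, and the 96 with at least 8 in 66.7% (56.8% to 75.3%). For the p53 knockout the shares were 11.0%, 8.99%, 14.9%, 22.3% and 64.6%. Unshared peaks outside both marks had lower shares in each of these classes, from 0.968% at 3 fragments to 13.7% at 8 or more in the Ezh2 knockout and from 2.76% to 10.6% in the p53 knockout. At 3, 4 and 5 fragments in the Ezh2 wild-type list, peaks that were also in the p53 wild-type list were met more often in both knockouts. The class of 8 or more is open-ended and not matched, as it reached 1442 fragments among the regions and 134 among the unshared peaks. Of its 96 regions, 38 had a local background under 2 fragments, and 55.3% and 57.9% of these met an Ezh2 and a p53 knockout peak. Peak length was not matched in any class.

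**Figure D2:**
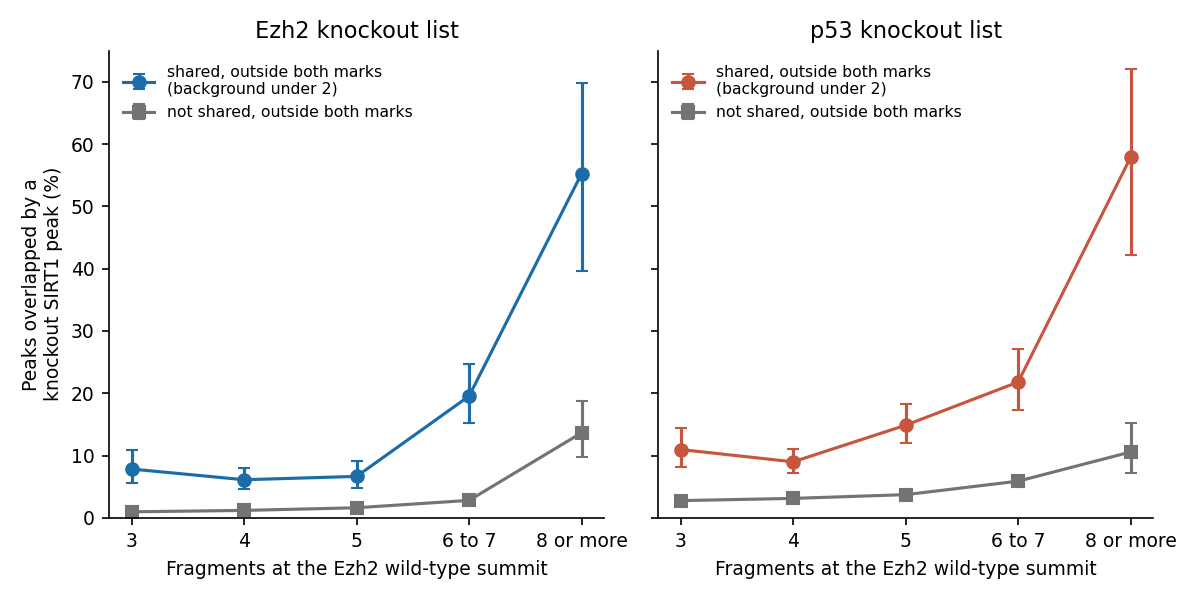
Share of peaks (%, vertical axis) overlapped by a peak of the Ezh2 knockout list (left) or the p53 knockout list (right), by fragments at the Ezh2 wild-type summit (horizontal axis); coloured circles are shared peaks outside both marks with a local background under 2 fragments, grey squares are all unshared peaks outside both marks, bars are 95% Wilson intervals. In each class the coloured share lies above the grey one, and it reaches 55.3% and 57.9% at 8 fragments or more.

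Presence was also higher at longer wild-type peaks. Regions under 250 bp met an Ezh2 knockout peak in 3.97% of 806 cases and a p53 knockout peak in 7.44%. Those of 600 bp or more had 41.6% and 51.1% of 221. Among unshared peaks outside both marks, the shares went from 0.981% and 2.53% under 250 bp to 8.90% and 11.9% at 600 bp or more. The median length was 266 bp for regions with no knockout peak and 646 bp for those with a peak in both knockouts. Within each length class the shared regions had the higher shares, and what part length had in the total was not tested. With an overlap of at least 50% of the shorter peak required for every pair of lists, 1535 regions were left. Of these, 11.0% had an Ezh2 and 13.3% a p53 knockout peak, against 1.39% and 2.97% of all Ezh2 wild-type peaks.

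A small class of regions lay where the authors' local background was high. Most of the regions had the common background of 0.817 fragments, but 61 (2.91%) had 2 fragments or more, against 0.257% of all peaks. Of these 61, 43 had an Ezh2 knockout peak, 42 a p53 knockout peak, 31 had both and 7 had neither. They also made up 33 of the 63 regions with a q-value of at most 0.05. Their wild-type summits lay 39 bp apart in the median, and 78.7% lay within 100 bp. Without them, 9.25% (8.07% to 10.6%) of 2032 regions had an Ezh2 knockout peak, 13.4% (12.02% to 14.99%) a p53 knockout peak and 4.33% had both. The unshared peaks outside both marks under the same limit had 1.36%, 3.37% and 0.219%.

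The highest background belonged to a few loci. The region at chr2:98666576-98667277, more than 1 Mb from the nearest formally named gene and 43210 bp from the start of the predicted gene Gm33780, rested on 1442 fragments against a background of 439. It was listed at 3.28-fold in Ezh2 wild type, 3.29 in p53 wild type, 3.17 in Ezh2 knockout and 2.03 in p53 knockout, and at 1.02 and 1.39 in the untreated EZH2 and p53 lists. It had the most fragments of all the regions, while its Ezh2 wild-type fold lay below the 90th percentile of their folds, 3.85. A region at chr9:3000892-3001526 had 8.73, 8.86, 6.35 and 3.22-fold in the same order of SIRT1 lists. The regions beside the ribosomal RNA locus Rn18s-rs5, from chr17:39843114 to chr17:39848717, had SIRT1 peaks in the Ezh2 knockout list and none in the p53 knockout list. The reverse was seen at 3 neighbours near the pseudogene Tubb4b-ps2, from chr1:24611644 to chr1:24616127. They were absent from the Ezh2 knockout list, were listed at 5.78 to 7.68-fold in the p53 knockout, and met single peaks of 5.25-fold in untreated EZH2 and 8.32-fold in p53.

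**Figure D3:**
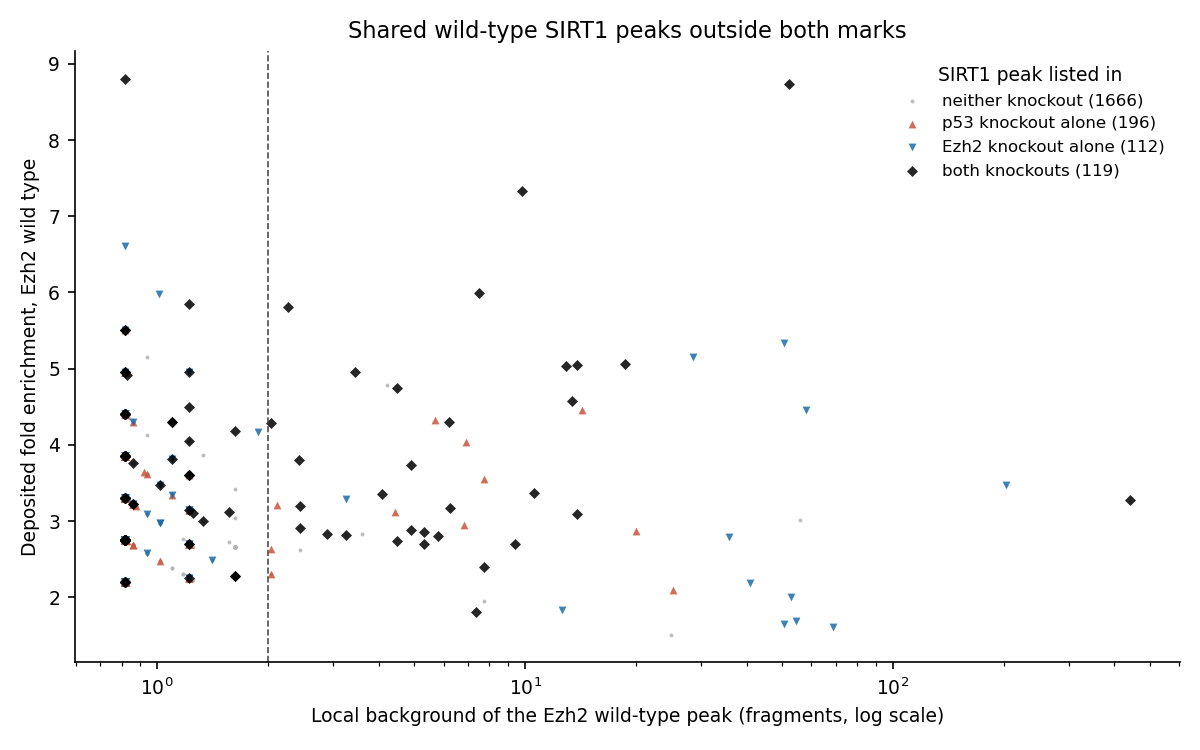
Deposited fold enrichment in the Ezh2 wild-type list (vertical axis) against the local background in fragments (horizontal axis, log scale) for the 2093 regions; the marker gives the knockout lists with a peak there and the dashed line marks 2 fragments. To the right of the line lie 61 regions, of which 31 had a peak in both knockouts and 7 in neither.

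Outside those loci, some regions kept similar folds in all 4 SIRT1 lists. Inside Fcgbp, a mucin-like protein gene, the region chr7:28097941-28098362 was listed at 4.40-fold in Ezh2 wild type, 4.65 in p53 wild type, 4.31 in Ezh2 knockout and 4.82 in p53 knockout, from 7, 7, 7 and 8 fragments. Inside Fhit, a hydrolase gene that spans a common fragile site, chr14:11048519-11049709 was listed at 4.40, 4.07, 4.41 and 4.06-fold in the same order. Neither region had a listed p53 or EZH2 peak. At both, the highest and lowest of the 4 folds differed by less than 1.

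Other regions of this set varied more between lists. Inside Zswim6, a zinc-finger gene, the folds were 5.50, 4.65, 4.31 and 9.63, with the p53 knockout highest at 17 fragments. At 3767 bp from Dusp5, which encodes a nuclear phosphatase of ERK kinases, the folds were 3.85 and 5.06 in wild type and 7.01 and 8.27 in the Ezh2 and p53 knockouts. Both knockout values there lay above both wild-type values. Inside Klhdc4, a kelch-domain gene, the folds of 5.50 and 4.65 in wild type were above 3.78 and 3.86 in the knockouts. These are single libraries scaled to their own background, so the differences are descriptions and were not tested.

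Cenpo, a centromere protein gene, held a pair of the regions. The first, chr12:4219616-4220106, was listed at 4.30, 5.26, 5.03 and 4.44-fold in the same order, and met a p53 peak of 3.74-fold and a nigericin EZH2 peak of 2.56-fold. Golt1b, which encodes a Golgi transport protein, had 3.85, 4.65, 3.78 and 3.86-fold. Map6, which encodes a microtubule-stabilising protein, had 3.85, 3.94, 3.78 and 5.51-fold. At each of these 3 genes the highest of the 4 folds was less than 2 times the lowest.

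**Figure D4:**
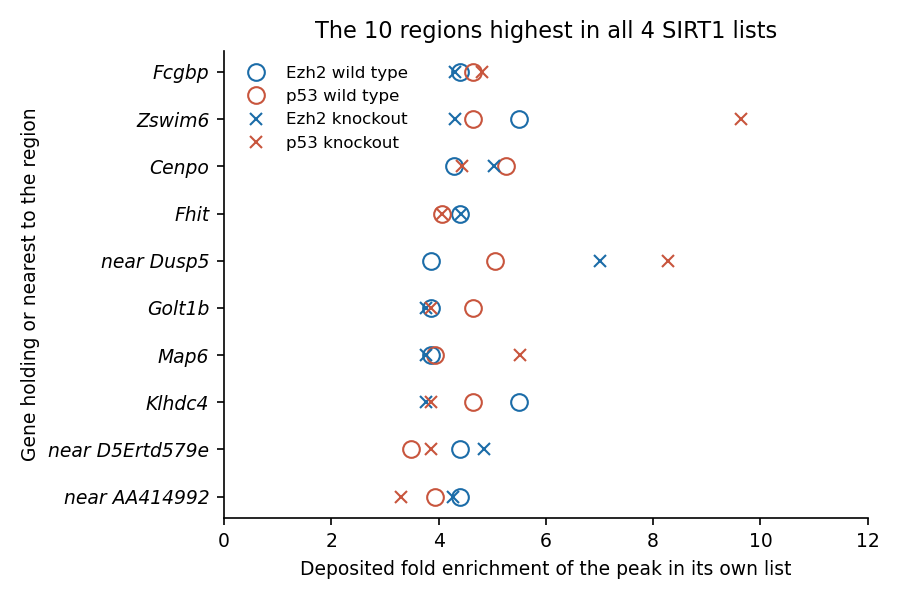
Deposited fold enrichment (horizontal axis) of the 10 regions with a peak in all 4 SIRT1 lists and the highest lowest fold, each row named by the gene that holds it or, where marked near, lies closest; circles are wild-type and crosses knockout libraries, blue for the Ezh2 pair and red for the p53 pair. Fcgbp and Fhit have 4 close values, while the p53 knockout stands at 9.63 at Zswim6 and 8.27 near Dusp5.

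The highest fold among all 2093 lay inside Thada, a gene first named from thyroid adenomas. At chr17:84461889-84464034 the fold was 8.81 in Ezh2 wild type from 15 fragments over the common background, 2.29 in p53 wild type, 3.45 in Ezh2 knockout and 4.34 in p53 knockout. The Ezh2 wild-type value was thus the highest of the 4, and the region was present in every list. Inside Arhgef1, which encodes a guanine nucleotide exchange factor, a region of 5.50-fold in Ezh2 wild type had 2.32 in p53 wild type and 3.24 in the Ezh2 knockout, with no peak in the p53 knockout.

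The highest regions without a knockout peak included one inside Ppp1r13l and one inside Naip5. Ppp1r13l, which encodes iASPP, an inhibitor of p53, had 4.95-fold in Ezh2 wild type from 8 fragments and 2.81 in p53 wild type from 4, at chr7:19361170-19361440 with the summit 114 bp from the start. Naip5, which encodes a sensor that recognises bacterial flagellin for the NLRC4 inflammasome, had 4.95 and 3.48 inside the gene. Arhgef40, another exchange factor gene, had 5.16 and 2.77.

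The remaining high regions of this set lay mostly outside genes. The region nearest to Eea1, which encodes an early endosome tether, lay 32077 bp away and had its higher value in p53 wild type, 7.55-fold from 12 fragments against 4.95. Regions near Rpl14, a ribosomal protein gene, and near Cntn1, a contactin gene, had 4.95-fold in Ezh2 wild type and 2.90 and 4.07 in p53 wild type. Usp20, shown above by its promoter sequence, had 4.40 and 3.37 with the summit 28 bp before the start. Folds of 4 or more in Ezh2 wild type, the list used to rank this set, therefore occurred with no listed peak in either knockout. Of the regions of this set named here, only those near Eea1 and Cntn1 also had 4 or more in p53 wild type.

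Few of the regions met EZH2 or p53. An untreated EZH2 peak overlapped 17 (0.812%, 0.508% to 1.30%), against 0.712% of all Ezh2 wild-type SIRT1 peaks, and a nigericin EZH2 peak overlapped 10 (0.478%, against 0.404%). The interval of the untreated share includes the value for all peaks. A p53 peak overlapped 18 (0.860%, 0.545% to 1.36%), against 0.132% of all peaks. Of these 18, 10 were among the 61 regions of high background, and without those the p53 share was 0.394% of 2032. Leaving out the 61 brought the EZH2 share to 0.492%. Unshared peaks outside both marks met untreated EZH2 in 0.215% and p53 in 0.113%.

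The overlaps with EZH2 and p53 fell mostly on regions with a knockout peak, which made up 20.4% of all 2093. Of the 17 regions with untreated EZH2, 7 had a SIRT1 peak in both knockouts, 3 in the Ezh2 knockout alone, 4 in the p53 knockout alone and 3 in neither. Of the 18 with p53, the numbers were 8, 1, 5 and 4. The 61 regions of high background, of which 88.5% had a knockout peak, held 7 of the 17 and 10 of the 18. Whether these overlaps go with knockout presence apart from background and length was not tested. Ide, the gene of insulin-degrading enzyme, held the 1 region with a background under 2 fragments that met both untreated EZH2 and p53. The region chr19:37298785-37301549 was listed at 4.40 and 4.76-fold in wild type, 3.20 and 4.41 in the knockouts, 2.94 in untreated EZH2 and 3.06 in p53. Uxs1, which encodes an enzyme of UDP-xylose synthesis, met p53 at 2.29-fold, with SIRT1 at 5.85, 5.10, 2.76 and 4.23. The regions in Ide and Uxs1 were 2765 and 836 bp long, against a median of 286 bp.

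EZH2 without p53 was listed at 3 further regions given here. Galk2, a sugar kinase gene, had an untreated EZH2 peak of 2.94-fold and SIRT1 folds of 4.95, 4.07, 3.24 and 8.82. Herc2, a ubiquitin ligase gene, had 2.67-fold EZH2 and SIRT1 folds of 4.95, 3.996, 3.23 and 4.75. Fam91a1 had 3.18-fold untreated EZH2 and a SIRT1 peak in the Ezh2 knockout at 4.43, with none in the p53 knockout. These EZH2 folds stood on 9 to 11 fragments in a list whose median peak had 10. The regions in Galk2, Herc2 and Fam91a1 were 991, 2657 and 1697 bp long.

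The regions lay in more gene-rich parts of the genome than unshared peaks outside both marks. Of the 2093, 1388 (66.3%, 64.3% to 68.3%) lay inside a gene, against 61.2% of all peaks and 59.6% of unshared peaks outside both marks. A protein-coding gene held 59.5% of the regions, against 51.1% of unshared peaks outside both marks. A peak within 1 kb of a gene end was seen for 21.6% of the regions and 10.5% of those unshared peaks. The surrounding megabase held a median of 12 protein-coding genes, against 8. Although none of the regions met a histone peak, the nearest H3K27ac peak was closer to them than to unshared peaks outside both marks, at a median of 30925 bp against 76152 bp. H3K27me3 was at 49447 bp against 73203 bp. Both distances depend on the listed peaks of 1 library each.

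Summits gathered at transcription starts. Of the 2025 regions on the 19 chromosomes with RefSeq starts, 135 (6.67%, 5.66% to 7.84%) had the Ezh2 wild-type summit within 250 bp of a start, against 2.01% of all peaks. Unshared peaks outside both marks had 1.53% (1.44% to 1.64%), and shared peaks over H3K27ac alone had 8.93% (6.86% to 11.6%). The share was 6.49% for regions under 250 bp and 5.09% for those of 600 bp or more. Of the 135, 32 (23.7%) had an H3K27ac peak within 1 kb, and 8 had one on each side within that distance. The regions at starts met an Ezh2 knockout peak in 11.9% and a p53 knockout peak in 20.7% (14.8% to 28.3%) of cases, and the others in 11.1% and 14.7% (13.2% to 16.4%), with overlapping intervals.

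**Figure D5:**
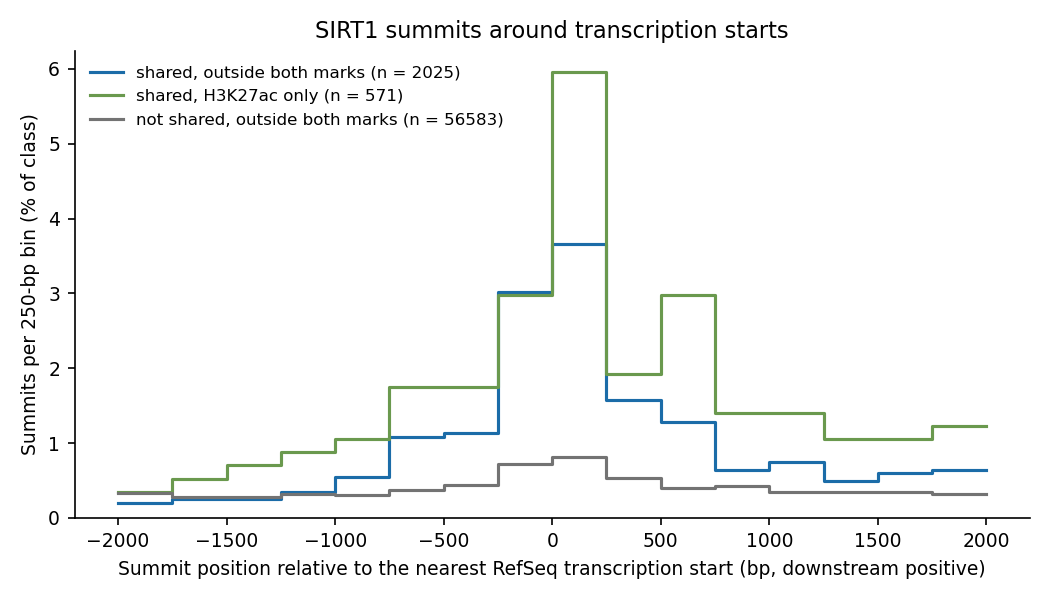
Share of summits per 250-bp bin (% of each class, vertical axis) by distance from the nearest RefSeq transcription start (bp, downstream positive, horizontal axis) for shared peaks outside both marks (blue), shared peaks over H3K27ac alone (green) and unshared peaks outside both marks (grey), on 19 chromosomes. The blue line peaks in the bins either side of the start, at 3.01% and 3.65%.

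The promoters concerned were rich in CpG. The 90 windows with a summit had a median GC content of 62.5% and a median of 22.5 CpG per 300 bases, against 53% and 7 over all 32619 windows, and 59% and 18 in the 589 windows holding the summit of an unshared unmarked peak. Searched on both strands, the PU.1 motif GAGGAAGT was in 3 of the 90 (3.33%, against 3.22% of all windows and 2.72% of the 589). The E-box CACGTG was in 8 (8.89%, 4.57% to 16.6%), against 7.20% of all windows and 12.9% of the 589. The AP-1 motif TGANTCA was in 0 of the 90 (upper limit 4.09%), 7.85% of all windows and 6.79% of the 589. The 3 motifs do not contain each other. Some of the 90 windows overlap and hold the same summit, as at Cchcr1 and Tcf19. The limits given count each window as separate and are therefore too narrow.

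Single starts are described next, chosen after their values were seen. Hk2, the gene of hexokinase 2, which starts glycolysis, had 4.40-fold SIRT1 in Ezh2 wild type, 2.32 in p53 wild type and 3.10 in Ezh2 knockout, with the summit 158 bp before the start and H3K27ac 267 bp away. C5ar2, a receptor for the complement fragment C5a, had 4.40 and 2.32 in wild type and no knockout peak. Insig2, which encodes an ER retainer of SREBP processing, had 3.61 and 2.90, also without a knockout peak. H3K27ac lay 25 bp and 140 bp from the C5ar2 and Insig2 regions, so all 3 starts bordered acetylated chromatin without meeting a listed peak of it.

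The distance to acetylation varied among the other starts described. Etv5, an ETS transcription factor gene, had 3.85 and 2.38-fold with H3K27ac 4213 bp away. Fyn, a Src-family kinase gene, had 2.58 and 2.82 with H3K27ac 33667 bp away, and Tyk2, a JAK kinase gene of interferon signalling, had 2.25 and 2.90 at 3743 bp. Cbx5, which encodes the heterochromatin protein HP1-alpha, had 2.75 and 3.48 in wild type and 2.70 in the Ezh2 knockout. Of the promoters printed above, Nub1 had 3.30, 3.48 and, in the p53 knockout, 3.86-fold, with H3K27ac 48 bp away. Slc27a1 had 2.98 and 3.48 in wild type and 3.24 in the Ezh2 knockout, with H3K27ac 580 bp away. Hspa4l had 3.30, 3.37 and, in the p53 knockout, 2.21, and Ccdc125 had 3.30, 3.94 and 3.21, with H3K27ac 243416 bp and 5900 bp away. All of these rested on 3 to 6 fragments.

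The border of the rule was set by a few bases at some places. The regions closest to a mark without meeting it were inside Mypop, at 1 bp from an H3K27ac peak with 3.85-fold SIRT1, inside Tmem238 at 2 bp from H3K27ac with 3.005-fold, and inside Rgs12 at 7 bp from H3K27ac with 2.20-fold. A region inside Tbx21, the gene of the lymphoid factor T-bet, lay 7 bp from H3K27me3 with 2.20-fold. Just outside the rule, a shared peak of 2.75-fold near Atxn7l3 overlapped H3K27ac by 3 bp and one of 2.20-fold inside Cox10 by 6 bp. With no histone peak allowed within 5 kb, 1369 regions were left, and 13.1% and 15.6% of them had a peak in the Ezh2 and p53 knockout lists.

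The regions were spread over the genome with a few dense places. They fell into 1133 megabases, 633 of which held 1. By chromosome, the share of the Ezh2 wild-type list that they made up ran from 2.28% on chromosome 1 (117 regions) to 3.67% on chromosome 17 (126 regions), and 14 lay on X. The densest megabase, from 47 Mb on chromosome 6, held 18, of which 13 met an Ezh2 knockout peak, 17 a p53 knockout peak and 17 had a high background. It holds Zfp783 and copies of the 4.5S RNA gene Rn4.5s, and its nearest region lay 59533 bp from the Ezh2 gene itself. The megabase from 20 Mb on chromosome 8 held 10, with 8 of high background and 5 present in both knockouts.

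Dense places without high background are given with their counts of knockout peaks. Of all 2032 regions of lower background, 18.4% had a peak in at least 1 knockout. With 7 to 11 regions in each place, the counts cannot tell a place from this share. The megabase from 30 Mb on chromosome 2 held 11 regions, with Crat, Dolk, Nup188, Tor1a and Usp20 among the genes, of which 1 had a peak in the Ezh2 knockout and another in the p53 knockout. The megabase from 19 Mb on chromosome 7 held 9 in Clasrp, Eml2, Ercc1, Nectin2 and Ppp1r13l among others, and 0 had a knockout peak. The megabase from 5 Mb on chromosome 19 held 9, of which 1 was present in the Ezh2 knockout. These places hold 28, 53 and 51 protein-coding genes. The megabase from 89 Mb on chromosome 3 held 8, including regions in Adam15, Ash1l and Clk2. Of these 8, 1 had a peak in the Ezh2 knockout and 2 others in the p53 knockout. The megabase from 80 Mb on chromosome 10 held 8 and that from 137 Mb on chromosome 5 held 7, each with 2 in the p53 knockout. Of the 7 in the megabase from 140 Mb on chromosome 5, 2 were present in the Ezh2 knockout, 1 of them in both. Without the 5 densest megabases, 2036 regions were left, and 10.3% and 14.3% of them had a peak in the Ezh2 and p53 knockouts.

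At the level of genes, 1171 formally named genes held a region, and the most in any gene was 3, at 13 genes. Of these, Ttc28, a gene of 410.0 kb that encodes a tetratricopeptide protein, had all 3 in both knockout lists. Trio, Ksr1, Kif26b and Camk1d, whose products are an exchange factor, a scaffold of the Ras pathway, a kinesin and a calmodulin-dependent kinase, had 3 each and no knockout peak. Gse1 had 2 of its 3 in the p53 knockout. Eif3b, which encodes a translation initiation factor subunit, held 3 of its 5 Ezh2 wild-type SIRT1 peaks as regions of this kind in 24.1 kb. The other genes with 3 were mostly longer than 80 kb.

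Gene lists were counted by a region within 5 kb of the gene, and 7.45% of all 21627 protein-coding genes had one. In the sirtuin and NAD list, 5 of 16 genes had one: Cd38 and Naprt, Nampt, Nmnat1 and Nmnat3. CD38 consumes NAD and the others make it. The regions at Cd38 (2.75 and 3.37-fold in Ezh2 and p53 wild type), Nampt (2.75 and 3.48) and Naprt (2.20 and 2.77) had no knockout peak, and the one inside Nmnat3 had 2.75, 3.48 and, in the p53 knockout, 3.31. The region counted for Nmnat1 lies inside its neighbour Lzic. Of the 16 genes, 15 had some Ezh2 wild-type SIRT1 peak within 5 kb, against 69.8% of protein-coding genes. The 16 genes had a median length of 24.6 kb, against 17.3 kb for all protein-coding genes.

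Of 20 SIRT1 substrates and partners found in the table, 4 had a region: Foxo3, Ccar2, Srebf1 and Ppargc1a. Some Ezh2 wild-type SIRT1 peak lay within 5 kb of 85% of these genes, against 69.8% of protein-coding genes. Their median length was 34.2 kb, against 17.3 kb. At 1226 bp from Foxo3, a FOXO factor gene whose product SIRT1 deacetylates, SIRT1 was listed at 2.70 and 2.90-fold in wild type, 3.54 in the Ezh2 knockout and 3.75 in the p53 knockout. Srebf1, the gene of the lipid factor SREBP1, had 2.20 and 4.07 in wild type and 3.21 in the p53 knockout. Ccar2, which encodes the SIRT1 inhibitor DBC1, had 2.58 and 2.25 and no knockout peak. Ppargc1a, which encodes the coactivator PGC-1alpha, had 3.30 and 2.90 and none either.

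In the Polycomb list, 4 of 20 genes had a region: Ezh1, Phf19, Rbbp4 and Ring1. Some Ezh2 wild-type SIRT1 peak lay within 5 kb of 90% of the list, whose median gene length was 27.3 kb. Ezh1, the paralogue of Ezh2, had 2.20 and 3.23-fold with the summit 46 bp from its start and H3K27ac 156 bp away, and no knockout peak. Phf19, which encodes a cofactor of Polycomb repressive complex 2, had 2.75 and 2.90. The regions counted for Rbbp4 and Ring1 lie inside the neighbouring genes Zbtb8os and Slc39a7. None of the 4 had a peak in either knockout list.

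The inflammatory and p53 lists were close to the share of all coding genes. Inflammasome genes had 2 of 20, Naip5 as above and Casp4, which encodes the sensor of cytosolic LPS, at 2.20 and 2.90-fold. NF-kB genes had 2 of 20, Nfkb1 (3.85 and 2.25) and Rel (2.98 and 2.90), which encode NF-kB subunits, both without a knockout peak. Target genes of p53 had 2 of 20, Perp (3.23 and 2.90) and Sesn2 (2.70 and 2.32, with 2.21 in the p53 knockout). A list of long genes, drawn up for neuronal adhesion and synapses, had 3 of 20 (Fhit, Wwox and Cntn4). Its name does not describe every member, as Fhit is the hydrolase gene given above. The median length of this list was 1467 kb, and 100% of it had some Ezh2 wild-type SIRT1 peak within 5 kb. Olfactory, vomeronasal and taste receptor genes had 11 of 2093.

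None of 10 further genes held one of the regions: Casp1, Gsdmd, Il1b and Nlrp3 of the inflammasome pathway, Cdkn1a and Mdm2 of the p53 pathway, the long non-coding Neat1, and Sirt1, Ezh2 and Trp53 themselves. The nearest lay 10532 bp from Casp1 and 12754 bp from Gsdmd, which encode the inflammatory caspase and the pore-forming protein it cleaves. The nearest to Trp53 lay 66112 bp away.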

How the data were processed

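ChIP-seq peak lists of 9 immunoprecipitated libraries of mouse macrophages were used, 1 per group and none pooled per the file headers and labels. The 7 inputs had no list of their own, and per the labels' design text each list was made from an immunoprecipitate and an input. MACS2, deepTools and the build GRCm38/mm10 are named per the submitters' processing notes. Tool versions, aligner and filters on reads are not given in the sources used. The deposited fold is a ratio of summit fragments to local background, with 1 added to both. As deposited by the authors, 2 further columns are the −log10 p-value and −log10 q-value of each peak. The deposited score is 10 times the −log10 p or q and was not used.

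Fragments at the summit and the local background were solved from the deposited fold and −log10 p under a Poisson model, and came out whole within 0.0001 for at least 99.96% of peaks of each list. Peaks on chromosomes 1 to 19 and X were used, and lists were compared by an overlap of at least 1 bp. Shares carry 95% Wilson intervals. Genes (49550) and promoter windows (250 bases before to 50 after a start, covering 79.9% of coding genes and none of chromosome 18) came from RefSeq tables of GRCm38. Exons were not in these tables, and the planned composition of peak sequences was not run, since no genome was used here. The interval functions were tested on simulated data. Python 3.11.15, pandas 2.3.3 and scipy 1.17.1 were used.

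Regions named in the text were those with the highest fold in Ezh2 wild type, the highest lowest fold over all 4 SIRT1 lists, no knockout peak, an untreated EZH2 or p53 peak, the closest wild-type summits, or the smallest distance to a mark. A few regions selected this way are left out here. Dense megabases, the genes holding the most regions and members of gene lists were also named. Promoters other than those printed, high-background loci, and splits by length were picked with their values in view. The members and gene lists were chosen with earlier results of these data known. Alternatives were a stricter −log10 p, a larger overlap, a wider gap to histone peaks, lists of equal length, and leaving out regions with EZH2 or p53 or in dense megabases. Leaving out high background and starting from the p53 wild-type list were chosen after seeing the data.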

Additional observations from a re-analysis of the deposited data

How the results depend on the processing

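The number of regions, 2093, moved most with lists of equal length, which left 304, and 505 were left at a −log10 p of at least 3 in the 4 SIRT1 lists and 1369 with no histone peak within 5 kb. Shares were called moved where they left the Wilson interval of the reported value. At a −log10 p of at least 3, presence was 19.6% (Ezh2 knockout), 21.4% (p53 knockout) and 11.5% (both), with 2.77% for untreated EZH2 and 2.18% for p53. With lists of equal length these were 28.3%, 25.3%, 17.4%, 4.28% and 3.62%, and the share inside a gene was 61.5%. All Ezh2 wild-type peaks under these settings had 2.38% and 2.74%, and 2.98% and 2.64%, in the Ezh2 and p53 knockouts. With no histone peak within 5 kb, presence was 13.1% in the Ezh2 knockout and 7.30% in both. With an overlap of 50% of the shorter peak, presence in the p53 knockout was 13.3%, against 2.97% of all Ezh2 wild-type peaks. Without the high background, chosen after seeing the data, the values were 9.25%, 13.4%, 4.33%, 0.492% and 0.394%. The other 32 of 54 values stayed within the interval, or within 1.5 times for the number, including all values without the densest megabases, without regions in both EZH2 lists or the p53 list, and from the p53 wild-type list. Starting from the p53 wild-type list takes mostly the same overlapping pairs, so its values could hardly move. The cause of the moves was not tested beyond the construction of each setting. With 3 or 4 fragments behind most peaks, the absence of a listed peak does not show the absence of SIRT1. No paired analysis was possible because each group had 1 library.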
